A study of Saccharomyces cerevisiae with 24 samples.

Results

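Large subunit assembly factors are the proteins that build the pre-60S particle, the precursor of the large ribosomal subunit, in the nucleolus of yeast and escort it through the nucleoplasm and out to the cytoplasm. They fold the ribosomal RNA, remove its internal spacers, bring in the 5S particle and leave the particle step by step, and the last of them are released in the cytoplasm. Their genes belong to the ribosome biogenesis genes, which yeast is known to turn down during stress and to raise again as growth resumes. A list of 51 such genes was matched by symbol to the array, and 50 of them had a named probe, among 5493 genes named on its 6350 probes. MDN1, the large ATPase that strips factors from the particle, was found under its older symbol REA1, and NOP7 was not matched to a probe and is not analysed here.

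The samples were 24 two-colour arrays of Saccharomyces cerevisiae total RNA (Cy5) hybridised against yeast genomic DNA (Cy3), with 1 array for each strain and time. The strains were prp17 null, prp17-1 and prp22-1, all mutant for splicing factors, and SS330, taken as the comparison strain. Each was sampled at 23C (0 min) and at 5, 15, 30, 60 and 120 min after a shift to 37C, and no further genotype is given in the labels. PRP17, now named CDC40, encodes a spliceosome protein needed late in the splicing reaction. PRP22 encodes an RNA helicase that frees spliced mRNA from the spliceosome.

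Values are the log2 ratios as deposited, with each array's median set to 0 here. The base of the logarithm, the direction (RNA over DNA) and the baseline of a probe are not stated in the labels, so differences between arrays are read and no level is set against that of another gene. The direction was read from CDC40, with a value of -2.76 at 0 min in prp17 null and -0.54 in SS330. An array held values for 77.3% to 98.4% of its probes and for 42 to 50 of the 50 members, and 4 arrays held values for under 85% of probes: prp22-1 at 15 min and prp17 null at 0, 5 and 30 min. Tests covered 5487 probes, 45 of them members. SPB4, SDA1, RPF2 and NOC3 had too few values in prp17 null to be tested, and NIP7, with values on 19 arrays, too few over all arrays. The p-values measure the spread between strains or times of 1 course each, so a strain and its culture cannot be told apart. In bulk RNA, fewer cells of a kind and less RNA per cell cannot be told apart.

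After the shift to 37C most members went down together within 5 min and then came back to a degree that varied between the strains. This is read from 1 array per strain and time. Tests of the change against SS330 are given below, and that from 23C to 37C called 0 members in each mutant strain. In prp17 null the median change of the members from their own 0 min value was -1.41, -0.98, -1.54, -0.70 and -0.48 at 5, 15, 30, 60 and 120 min. In prp17-1 it was -1.13, -1.25, -0.55, -0.05 and -0.45 at those times. The median in prp22-1 was -1.43, -1.05, -0.51, -0.43 and -0.63. For SS330 the values were -1.19, -0.86, -0.01, -0.11 and 0.05. At 30 min 40 of 41 members measured in prp17 null were still below their 0 min value, against 24 of 47 in SS330, where the median was back at the 23C level.

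**Figure D1:**
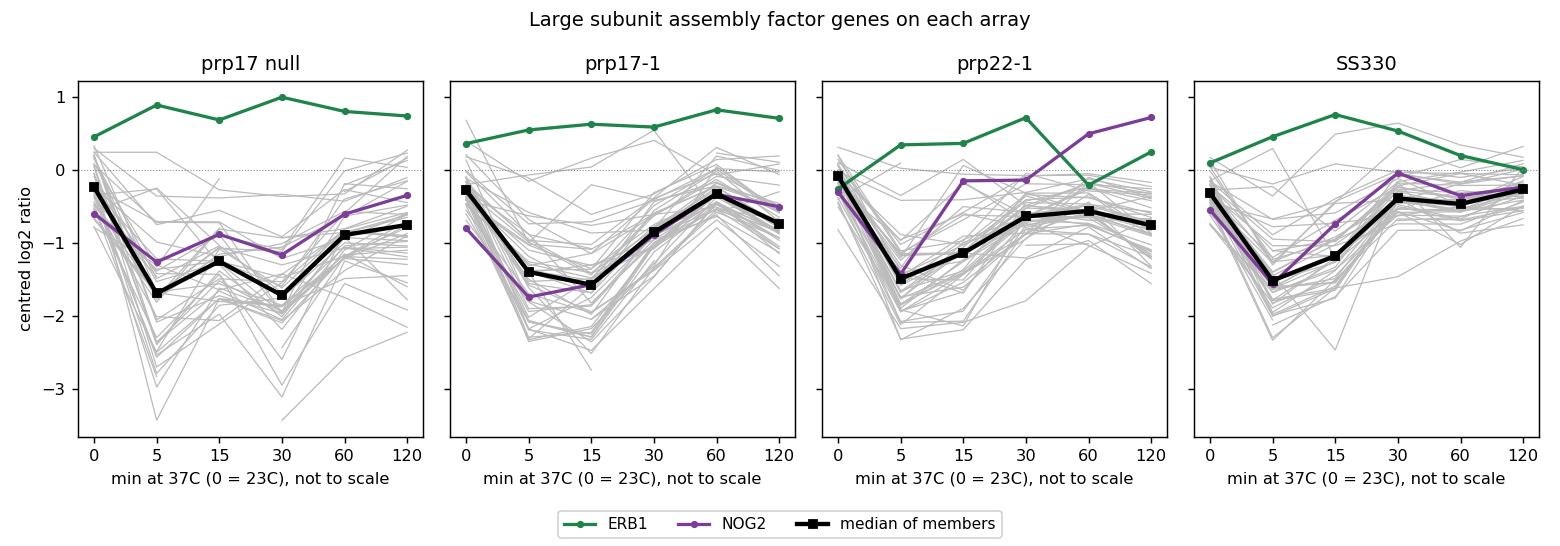
Centred log2 ratio (vertical axis) of each of the 50 members with a probe (grey lines) on every array, by min at 37C (horizontal axis, not to scale; 0 is 23C), in prp17 null, prp17-1, prp22-1 and SS330. The black line is the median of the members, which reached -1.69 at 5 min in prp17 null and -1.52 at 5 min in SS330. At 37C ERB1 (green) averaged above its own 0 min value in each strain, and NOG2 (purple) lay above its own from 15 min on in prp22-1.

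At 23C the members lay between -0.79 and 0.45 in prp17 null, between -0.80 and 0.68 in prp17-1, between -0.82 and 0.31 in prp22-1 and between -0.76 and 0.17 in SS330. A fall of more than 1 on the log2 scale was seen at 5 min in 26 of 41 members of prp17 null, 27 of 48 of prp17-1, 40 of 49 of prp22-1 and 30 of 47 of SS330. At 30 min 27 of 41 members of prp17 null were still that far down, against 7 of 48 in prp17-1, 2 of 49 in prp22-1 and 1 of 47 in SS330. At 120 min 8 of 44, 3 of 49, 7 of 49 and 0 of 47 members were, in prp17 null, prp17-1, prp22-1 and SS330.

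The courses differed in shape as well as in depth. Among members with all 37C times measured, the lowest value in prp17 null came at 5 min for 17 of 37 members and at 30 min for 15. The arrays of those times had values for the fewest probes of that strain at 37C, 81.5% at 5 min and 79.75% at 30 min. Its other 37C arrays held 85.83% to 91.64%. Whether this bears on the course was not tested. In prp17-1 it came at 5 min for 17 of 45 members and at 15 min for 26. It came at 5 min for most members of the other strains, 37 of 46 in prp22-1 and 40 of 45 in SS330. Between 15 and 30 min 8 of 39 members went up in prp17 null, 45 of 47 in prp17-1 and 38 of 47 in prp22-1, against 44 of 46 in SS330. A late decline appeared in the strains with point mutations. From 60 to 120 min 45 of 48 members went down in prp17-1, 43 of 48 in prp22-1 and 19 of 45 in prp17 null, against 7 of 49 in SS330. These are counts on 1 array per time, with no replicate check, and all members on an array share its errors.

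Taken over the 4 strains, the mean of the 37C times was lower than 0 min for 37 of the 45 members tested and higher for ERB1. Over all probes tested 30.7% passed, 16.9% as lower and 13.8% as higher, at an adjusted p under 0.05 in limma. The median change of the 45 members was -0.74, with 44 of 45 below 0. Set against 0 min time by time, 41, 39, 21, 0 and 8 members passed as lower at 5, 15, 30, 60 and 120 min, where 14.6%, 17.7%, 9.7%, 2.61% and 9.95% of all probes did. At 60 min 9 of the 45 members had an unadjusted p under 0.05, and 1290 of all 5487 probes did. All 5 times were set against the same 4 arrays at 0 min.

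Single arrays decided the later counts, given here in either direction. At 30 min 22 members passed, with 17.7% of all probes, but 6 without the prp17 null array of 30 min, 13 without the prp17-1 array of 30 min and 9 with no block for the strain. At 60 min 0 members passed, with 6.38% of all probes, and 1 did without the SS330 array of 120 min or the prp17 null array of 5 or 120 min. At 120 min 8 passed, with 18.1% of all probes. That count was 1 without the prp17 null or the prp22-1 array of 120 min and 2 without the prp17-1 array of 120 min. It was 4 without the prp22-1 array of 5 min, 5 without the SS330 array of 60 min or the prp17-1 array of 5 or 30 min, 14 without the prp17 null array of 30 min, and 0 with no block for the strain.

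BRX1, which with its partner EBP2 shapes the early particle, had the largest fall, and is counted with the factors that fold the ribosomal RNA in the early 27S particle. In prp17 null its values at 0, 5, 15, 30, 60 and 120 min were 0.20, -2.36, -1.52, -1.98, -0.93 and -0.97. In prp17-1 they were -0.09, -1.62, -2.52, -1.34, -0.55 and -0.84, and in prp22-1 -0.05, -2.33, -1.90, -0.94, -0.44 and -1.32. The SS330 values were -0.29, -1.995, -1.76, -0.43, -0.40 and -0.33. Every 37C value lay below that strain's own 23C value, by little in SS330 from 30 min on. The fitted change was -1.27 ± 0.20 (SE, adjusted p = 0.000243), lower in 4 of 4 strains.

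DBP3, an RNA helicase, NOC2, a partner of MAK21, and NOP4, an RNA-binding protein, fell in the same group, with log2 changes of -1.12, -1.10 and -1.08. Of its 21 tested members 17 fell, with a median of -0.68. The smallest change in the group was that of NSA1, a factor that works with RPF1 and MAK16, at -0.28 ± 0.14 (SE, adjusted p = 0.148), which did not pass. It passed without the arrays of prp17 null (-0.36), without the prp17 null array of 120 min alone (-0.32) or without the 4 arrays with few values (-0.41). SSF1, SPB1 and DRS1 did not pass either, with -0.30, -0.44 and -0.57. SSF1 had a mean change of 0.37 in SS330, against -0.62, -0.47 and -0.49 in prp17 null, prp17-1 and prp22-1. A search for values far from the others marked it, and marked 2 of 102 sets, where chance marks about 1 in 20. SPB1 and, in another role, NOP15 also had a positive mean change in SS330 only, 0.085 and 0.124. NOP15 had -1.79, -0.99 and -0.99 in prp17 null, prp17-1 and prp22-1.

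Among the factors for removal of the internal spacer, HAS1, a helicase of the late nucleolar particle, changed most. In prp17 null HAS1 read -0.37, -2.54, -1.98, -3.12, -1.25 and -1.55 from 0 to 120 min. In prp17-1 it read -0.36, -2.18, -2.48, -1.63, -0.79 and -1.63. In prp22-1 it read -0.44, -2.32, -2.19, -1.23, -0.97 and -1.56, and in SS330 -0.50, -2.34, -1.51, -0.67, -0.69 and -0.52. At 5 min the strains lay close together, while from 30 min on each mutant value lay below the SS330 value. The fitted change was -1.24 ± 0.23 (SE, adjusted p = 0.000601).

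YTM1, which forms a complex with ERB1 and NOP7, followed. Its values in prp17 null were -0.05, -2.36, -1.66, -2.05, -1.04 and -0.98, and in prp17-1 0.14, -1.80, -2.05, -1.32, 0.04 and -0.57. In prp22-1 they were 0.06, -1.92, -2.14, -0.63, -0.49 and -0.73, and in SS330 -0.33, -1.98, -1.60, -0.45, -0.43 and -0.33. At 37C, YTM1 exceeded 0 on a single array, that of prp17-1 at 60 min. The fitted change was -1.18 ± 0.19 (SE, adjusted p = 0.000207). Of the 9 members of this role that were tested, 8 fell, with a median of -0.77 over all 9.

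ERB1, the scaffold of the complex that YTM1 joins, went the other way. In prp17 null ERB1 read 0.45 at 0 min and 0.89, 0.68, 1.00, 0.80 and 0.74 at the later times. In prp17-1 it read 0.36, then 0.55, 0.63, 0.59, 0.82 and 0.71. The prp22-1 values were -0.26, 0.34, 0.36, 0.72, -0.21 and 0.25, and those of SS330 0.09, 0.45, 0.76, 0.53, 0.20 and 0.00. All later values exceeded 0 min except that of SS330 at 120 min. The fitted change was 0.38 ± 0.12 (SE, adjusted p = 0.0199), higher in 4 of 4 strains. It no longer passed without the arrays of prp17 null, prp17-1 or prp22-1, nor with no block for the strain or without the 4 arrays with few values, at changes of 0.32 to 0.41, nor after quantile normalization, at 0.29.

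The factors of the 5S particle and of the nucleoplasm fell in 7 of 10 tested cases, with a median of -0.67. RRS1, which brings in the 5S particle together with RPF2, changed most, by -1.02 ± 0.23 (SE, adjusted p = 0.00282). The 3 that did not pass were NOG2, MDN1 and NOG1, with -0.08, -0.26 and -0.46. MDN1 removes YTM1 and later RSA4 from the particle, and NOG1 and NOG2 are GTPases of the particle. All 5 export and cytoplasmic factors fell, with a median of -1.001, the lowest of the 4 roles. That median is the change of ARX1. ARX1 and NMD3 had no SS330 value at 0 min, so the fall in that strain does not enter their fitted changes. ALB1, the partner of the export factor ARX1, changed by -1.16 ± 0.21 (SE, adjusted p = 0.000651) and NMD3, the adapter for the nuclear export receptor, by -1.05 ± 0.19 (SE, adjusted p = 0.00078), a call lost after quantile normalization (-0.43). REI1, which helps to release ARX1 in the cytoplasm, changed least in that role, by -0.40 ± 0.13 (SE, adjusted p = 0.0195). That call no longer passed with no block for the strain, without the arrays of prp17-1 or of prp22-1, without the 4 arrays with few values or after quantile normalization (-0.16).

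The 5 members that were not tested can only be described. NIP7, which joins the particle in the nucleolus, had no value at 5 and 15 min in prp17 null and read -3.44, -2.57 and -2.23 there at 30, 60 and 120 min. In SS330 it read -1.47, -0.98 and -0.67 at these times. RPF2, the partner of RRS1, had no value on any prp17 null array and read -2.08, -2.29, -1.05, -0.30 and -0.86 at the 37C times in prp17-1, -2.08, -1.94, -0.76, -0.61 and -0.89 in prp22-1 and -1.79, -1.65, -0.42, -0.44 and -0.39 in SS330. SDA1, a factor of nucleoplasmic maturation and export, had 1 value in prp17 null, -1.51 at 15 min. At 30, 60 and 120 min it read -1.01, -0.62 and -1.45 in prp17-1, and -0.48, -0.68 and -0.28 in SS330. NIP7, RPF2 and SDA1 thus went down and later rose again to differing degrees in the strains that measured them, while NOC3 and SPB4 had no such course. In SS330 RPF2 and SDA1 ended above their 0 min values of -0.44 and -0.49, and in prp17-1 SDA1 went down again from 60 to 120 min.

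**Figure D2:**
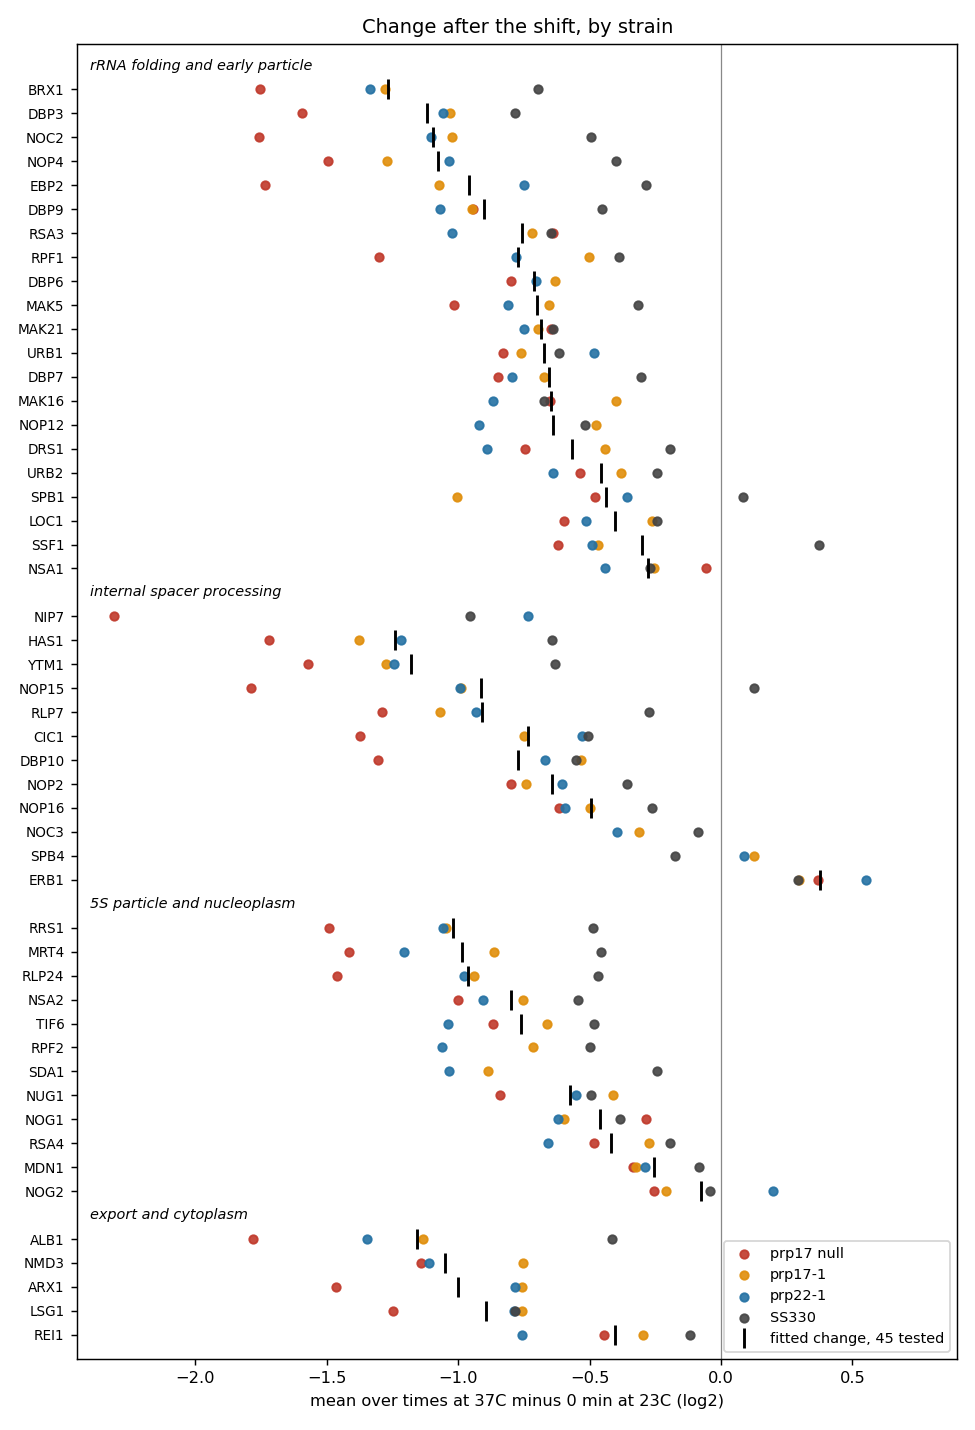
Mean over the times at 37C minus 0 min at 23C (horizontal axis, log2) for the members (rows, grouped by role), with a point per strain and a black tick for the fitted change of the 45 tested members. A point is shown where the strain had a value at 0 min; BRX1 has its tick at -1.27 and ERB1 at 0.38, and of the 41 members with all strains prp17 null lies farthest left in 28 and SS330 farthest right in 31.

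NOG2 is the member known to hold an intron, and among the 50 members it alone had an annotated coding span, stop codon included, that 3 does not divide, as for 224 of 6021 protein-coding genes. In prp17 null NOG2 read -0.60, -1.26, -0.88, -1.17, -0.61 and -0.35 from 0 to 120 min, and in prp17-1 -0.80, -1.74, -1.58, -0.89, -0.34 and -0.51. In prp22-1 it read -0.30, -1.43, -0.15, -0.14, 0.49 and 0.72, and in SS330 -0.55, -1.56, -0.74, -0.04, -0.35 and -0.24. At 5 min NOG2 was below its 0 min value in every strain (-0.94 ± 0.20 SE over the strains, adjusted p = 0.00227). At 60 and 120 min in prp22-1 NOG2 stood above its 0 min value, while the median change of the members was -0.43 and -0.63. NOG2 was also above its 0 min value at these times in prp17-1 and SS330, and at 120 min in prp17 null. Over all 37C times NOG2 averaged -0.10 ± 0.84 (SD, n = 5) in prp22-1 and -0.59 ± 0.60 (SD, n = 5) in SS330. The difference, 0.49 ± 0.19 (SE, adjusted p = 0.189), did not pass.

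The other genes of the pathway moved in the same direction. Of 27 tested genes on a list of other large subunit assembly genes 14 fell after the shift and none passed as higher, with a median of -0.51. The largest falls were -1.16 for PUF6, an RNA-binding protein of the early particle, -1.14 for ACL4, the chaperone of a large subunit protein, and -1.11 for NOP13, a nucleolar RNA-binding protein. Of 50 probes for the small subunit processome, which builds the precursor of the other subunit, 34 fell, with a median of -0.64. The RPL genes, which encode the proteins of the large subunit, had another course over the strains. Of 66 tested, 23, 57, 38, 11 and 53 passed as lower at 5, 15, 30, 60 and 120 min, with medians of -0.97, -1.45, -1.17, -0.88 and -1.36. The members' medians at those times were -1.22, -1.10, -0.66, -0.35 and -0.44. The difference between the lists was not tested.

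**Figure D3:**
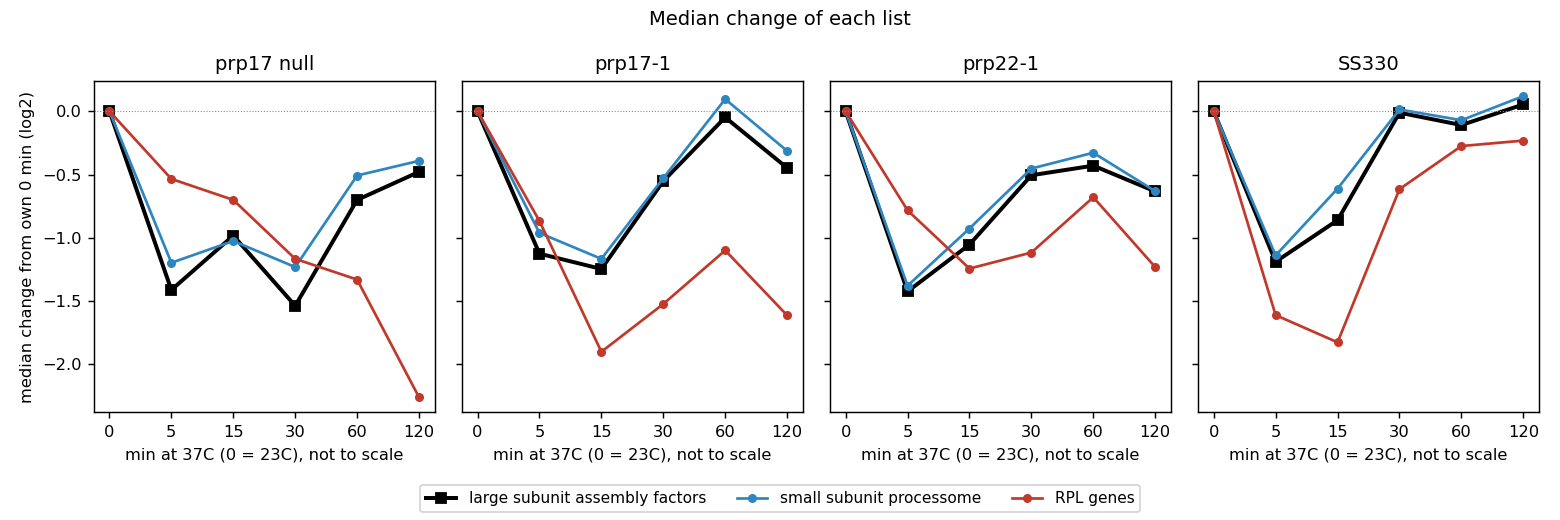
Median change from the strain's own 0 min (vertical axis, log2) of the members (black), the small subunit processome genes (blue) and the RPL genes (red), by min at 37C (horizontal axis, not to scale), in prp17 null, prp17-1, prp22-1 and SS330. At 120 min the members stood at -0.48 and the RPL genes at -2.26 in prp17 null, against 0.05 and -0.23 in SS330.

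At 37C the members were lower in prp17 null than in SS330. Of 45 tested, 24 were lower and ERB1 was higher, and the median difference was -0.57, with 39 of 45 below 0. Over all probes 34.0% passed, 19.4% as lower and 14.6% as higher. The difference was not even over the course. Its median was 0.16, -0.27, -0.11, -1.23, -0.48 and -0.37 from 0 to 120 min. At 30 min 41 of 42 members measured in both strains were lower in prp17 null, and at 0 min 13 of 42 were. Of the 34 members with all 5 times measured in both strains, 15 were lower in prp17 null at every time. With no block for the time point 7 of 45 passed, and with the arrays of those 2 strains alone 9 did. Without the SS330 array of 30 min or that of 120 min 16 members passed, and without the 4 arrays with few values, among them prp17 null at 5 and 30 min, 11 passed. The count fell furthest after quantile normalization, as given at the end. Over all probes the values at 37C had an SD of 0.82 to 1.05 in prp17 null, against 0.42 to 0.78 in SS330. Whether this wider spread bears on the difference was not tested.

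RRS1 differed most. At 5, 15, 30, 60 and 120 min it read -2.30, -1.43, -2.95, -1.56 and -1.92 in prp17 null, against -1.77, -1.62, -0.36, -0.47 and -0.15 in SS330. The strains overlapped at the early times and stood far apart from 30 min on. RRS1 averaged -2.03 ± 0.61 (SD, n = 5) in prp17 null and -0.88 ± 0.76 (SD, n = 5) in SS330, lower by -1.16 ± 0.28 (SE, adjusted p = 0.00503).

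The export factor ARX1 read -2.57, -1.77, -2.10, -1.19 and -1.23 at the 37C times in prp17 null, and -1.23, -0.97, -0.54, -0.55 and -0.29 in SS330. It was lower in prp17 null at all 5 times, by -1.06 ± 0.16 (SE, adjusted p = 0.000327). Its partner ALB1 was lower by -1.02 ± 0.22 (SE, adjusted p = 0.00331), also at all 5 times. DBP9, a helicase of the early particle, differed by -0.99, HAS1 by -0.94, SSF1 by -0.92, RLP7, which binds the internal spacer, by -0.87, and TIF6, which keeps the subunits from joining too early, by -0.86. DBP9 passed under every alternative that tested it. ARX1 and TIF6 lost their call after quantile normalization only, RRS1 with the arrays of the 2 strains alone, and ALB1 after quantile normalization or with no block. HAS1, SSF1 and RLP7 lost theirs with no block, with the 2 strains alone and without the 4 arrays with few values, HAS1 and RLP7 also after quantile normalization (-0.41 and -0.15), SSF1 and RLP7 without the 30 min array of either strain, SSF1 without the SS330 array of 120 min and RLP7 without the prp17 null array of 5 min. ERB1 averaged 0.82 ± 0.12 (SD, n = 5) in prp17 null and 0.39 ± 0.29 (SD, n = 5) in SS330, higher by 0.43 ± 0.15 (SE, adjusted p = 0.0323). The ERB1 call was lost without any 1 of the prp17 null arrays of 5, 30, 60 or 120 min or the SS330 arrays of 30, 60 or 120 min, at differences of 0.34 to 0.43, and likewise after quantile normalization (0.20), with the 2 strains alone or without the 4 arrays with few values.

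By role, 10 of 21 early factors were lower in prp17 null, 5 of 9 spacer processing factors, 6 of 10 factors of the 5S particle and nucleoplasm and 3 of 5 export factors, with medians of -0.51, -0.66, -0.54 and -0.70. NOG1 had the largest positive difference that did not pass, 0.19 ± 0.37 (SE, adjusted p = 0.72), and was higher in prp17 null at 5 and 15 min and lower at 60 and 120 min. Of the other large subunit assembly genes 15 of 27 were lower and none was higher. The largest differences were -1.56 for ECM1, an export factor of the subunit, -0.95 for PUF6 and -0.89 for SYO1, which imports proteins of the 5S particle. Of the processome probes 23 of 50 were lower, with a median of -0.49, and of the RPL genes 25 of 66, with a median of -0.82.

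**Figure D4:**
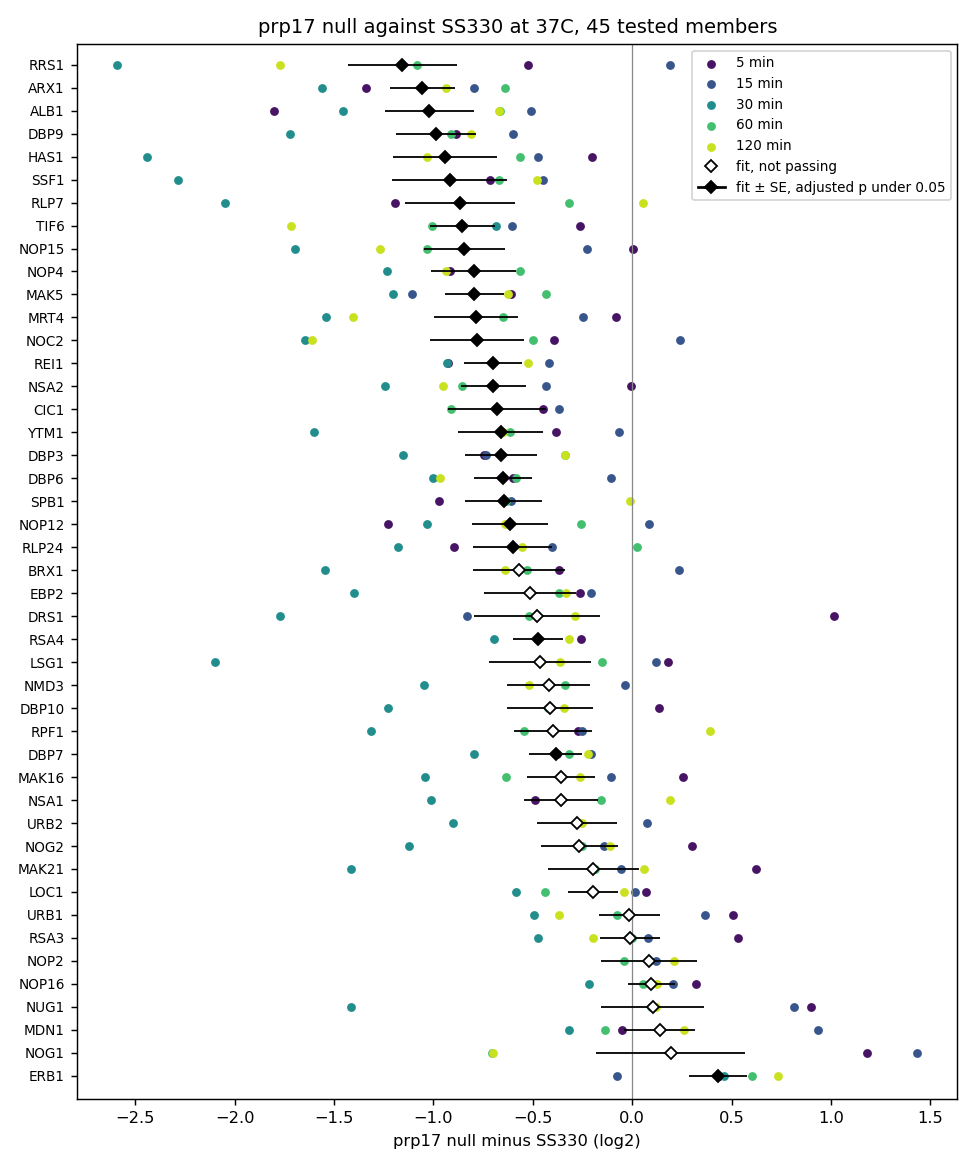
Difference of prp17 null minus SS330 (horizontal axis, log2) for the 45 tested members (rows), with a coloured point for each time at 37C and a diamond for the fitted difference with its SE, filled where the adjusted p is under 0.05. RRS1 is at the top with -1.16 and ERB1 at the bottom with 0.43, and each point of 30 min lies left of 0 except that of ERB1.

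The strains with point mutations were closer to SS330. In prp17-1 limma called 0 of 45 members, where 3.17% of all probes passed. An unadjusted p under 0.05 was reached by 15 of these 45 and by 1001 of all 5487 probes. The median difference from SS330 at 37C was -0.28. By time it was 0.08, 0.00, -0.56, -0.53, 0.13 and -0.43 from 0 to 120 min, so that 45 of 49 members were lower than in SS330 at 120 min, against 11 of 48 at 60 min. DBP9 differed most, by -0.73 ± 0.22 (SE, adjusted p = 0.0797), and ARX1 by -0.53 ± 0.16 (SE, adjusted p = 0.0897). In prp22-1 limma called 0 of 45 members, where 3.48% of all probes passed. An unadjusted p under 0.05 was reached by 5 of these 45 and by 989 of all 5487 probes. The median difference of the members in prp22-1 was -0.19. By time it was 0.23, -0.01, -0.10, -0.23, -0.11 and -0.50, with 45 of 49 members lower at 120 min. The count for prp17-1 was 1 without the prp17 null array of 30 min and 2 without the prp17-1 array of 60 min, and that for prp22-1 was 1 without the prp17 null array of 30 min or the prp22-1 array of 5 min. These comparisons share the SS330 arrays with that of prp17 null.

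**Figure D5:**
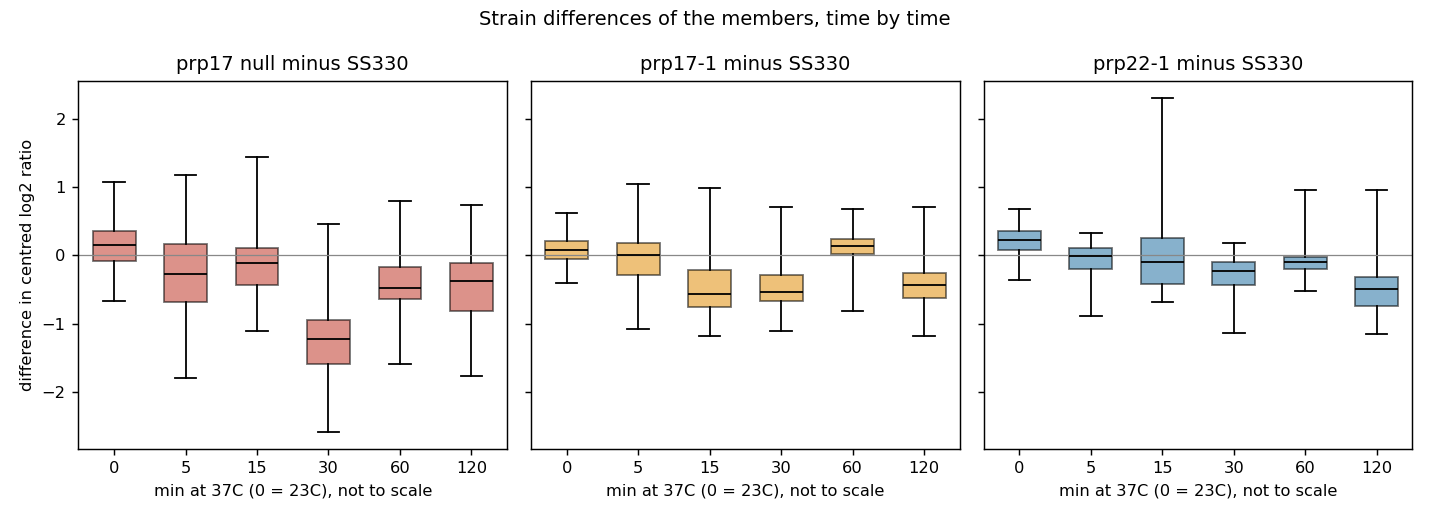
Difference of each mutant strain from SS330 (vertical axis, in centred log2 ratio) over the members measured in both, by min at 37C (horizontal axis, not to scale), for prp17 null, prp17-1 and prp22-1. Boxes span the quartiles with the median as a line, and whiskers reach the lowest and highest member; the lowest median is -1.23 at 30 min in prp17 null.

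The strains with mutant PRP17 alleles were also set against each other. In prp17 null, 2 of 45 members were lower than in prp17-1 at 37C, where 12.9% of all probes passed, 6.11% as lower. The members thus passed no more often than probes at large. TIF6 averaged -1.66 ± 0.33 (SD, n = 5) in prp17 null and -1.03 ± 0.25 (SD, n = 5) in prp17-1, a difference of -0.63 ± 0.16 (SE, adjusted p = 0.0206). ARX1 averaged -1.77 ± 0.59 (SD, n = 5) in prp17 null and -1.24 ± 0.73 (SD, n = 5) in prp17-1, a difference of -0.53 ± 0.16 (SE, adjusted p = 0.0428). Each was lower in prp17 null at all 5 times. With no block for the time point 1 of 45 passed. The count ran from 0 to 7 when single arrays were left out. It was 0 without the 60 min array of prp17 null or the 60 or 120 min array of prp17-1, 7 without the 15 min array of prp17 null, and 1 without the 30 min array of prp17 null, prp17-1 or SS330, the 15 min array of SS330, or the 5 or 60 min array of prp22-1.

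Whether the change from 23C to 37C differed between a mutant strain and SS330 was tested where the 0 min arrays held a value. limma called 0 of 41 members for prp17 null, 0 of 42 for prp17-1 and 0 of 42 for prp22-1, and 0.0% of all probes in each case. Unadjusted p under 0.05 was reached by 4, 2 and 1 members, in that order. Of all probes 375 of 4886, 74 of 5211 and 128 of 5237 reached it. The median differences of the members were -0.55, -0.25 and -0.45. Each of these tests rests on 1 array at 0 min per strain.

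A further test set the change from the early times (5 and 15 min) to the late times (60 and 120 min) in a mutant strain against that in SS330. For prp17 null 3 of 45 members passed, all lower, where 11.6% of all probes passed, 6.92% as lower. The members thus passed as lower about as often as probes at large. NOG1 had -0.25 and -1.03 early and -1.08 and -1.06 late in prp17 null, and -1.43 and -2.47 early and -0.37 and -0.36 late in SS330. Its values thus went down with time in prp17 null and up in SS330, a difference of -2.01 (adjusted p = 0.0436). The NOG1 value of -0.25 at 5 min in prp17 null is marked below as far from the others. RRS1 differed by -1.26 (adjusted p = 0.0356) and NOP15, an RNA-binding protein of the spacer processing factors, by -1.04 (adjusted p = 0.0363). With no block for the time point 1 member passed. Leaving out single arrays gave 0 to 4 members: 0 without the 15 or 120 min array of SS330, the 120 min array of prp17 null, or the 60 or 120 min array of prp17-1, and 1 without the 5 min array of SS330 or the 5, 15 or 60 min array of prp17 null.

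The median over the 45 members of this early to late difference was -0.28 for prp17 null, 0.11 for prp17-1 and -0.33 for prp22-1. limma called 0 of 45 members in prp17-1 and 0 of 45 in prp22-1, where 0.568% and 1.43% of all probes passed. An unadjusted p under 0.05 was reached by 2 and 3 members, and by 634 of 5459 and 707 of 5467 probes. The count of called members in prp22-1 was 1 without the prp22-1 array of 5 min. The RPL genes stood at medians of -2.56, -1.42 and -1.47 in prp17 null, prp17-1 and prp22-1, with 60, 6 and 21 of 66 passing as lower, where 6.92%, 0.33% and 0.969% of all probes did. Whether the lists differ was not tested.

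The members resembled one another to different degrees over the arrays. For each, its values were correlated with the median of the other members on the same arrays, as a description in which all points share the same arrays, times and strains. Of 50 members 24 reached a Pearson r of 0.9 or more. The highest were RPF2 (0.97 over 18 arrays), YTM1 (0.97 over 24), HAS1 (0.96 over 24), NOP4 (0.96 over 20) and NMD3 (0.96 over 22), which take part at steps from the nucleolus to export. In all, 4 members were under 0.5, and the 3 lowest were ERB1 at -0.54, SPB4 at -0.30 over 19 arrays and NOC3 at 0.16 over 20 arrays. SPB4 is a helicase of the spacer processing step, and NOC3 pairs with NOC2 on the later nucleolar particle. NOC3 hardly moved at all, between -0.23 and 0.40 on the arrays that measured it, against -2.397 to 0.06 for NOC2. In the annotation 0 pairs of members were neighbours, and NSA2, NMD3 and RSA3 each had a processome gene as a neighbour, LCP5, DBP8 and UTP13.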

How the data were processed

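The authors deposited 1 log ratio per probe and array, taken here as log2. Sources used here do not give the base, the normalization or the spot filter. No sample column was left unused (0). Members and lists were chosen with earlier results of these data known.

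Each array was centred on its median. Testing required values on 20 or more of 24 arrays, and per strain on 3 or more of 5 arrays at 37C. The R package limma 3.58.1 (R 4.3.3) gave the fits, and p-values were adjusted by Benjamini-Hochberg over all tested probes, with a threshold of 0.05. Strain comparisons used the time point as a block, with all arrays in the fit, and the shift used the strain. The pairing comes from the labels, which give the strains the same times. At the same time, deviations from the strain means correlated between -0.17 and 0.63 over probes, and at different times between -0.678 and 0.665. For prp17 null and SS330 the ranges were -0.163 to 0.198 and -0.353 to 0.384, so these correlations do not show a pairing of those 2 strains. Fits were tested on simulated data. Tables were made with pandas 2.3.3 and numpy 2.4.6, and figures with matplotlib 3.10.9, in Python 3.11.15.

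Named were up to 8 called members with the largest change per comparison and up to 5 that went the other way, the largest and smallest changes per role, NOG2, ERB1, and the 5 members most and 3 least like the rest. Other members that are named were chosen after their values were seen. Alternatives were no centring, centring outside the ribosome lists, quantile normalization, other filters, no block, only the strains compared, and leaving out arrays or strains. Promoter motifs were not analysed here. The number of arrays limits the precision.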

Additional observations from a re-analysis of the deposited data

Results flagged for a closer look

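Of 102 sets of values of a member in a strain that were looked at for a value far from the others, 2 were marked, where chance marks about 1 in 20. NOG1 in prp17 null read -0.25 at 5 min, far above its values at the other 37C times, which lay between -1.08 and -1.03. The mean change of SSF1 after the shift was 0.37 in SS330, far from those of the mutant strains, which lay between -0.62 and -0.47.

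For 3 of 45 members, all lower, the change from the early to the late times passed as different between prp17 null and SS330. Of all probes 11.6% passed in that test, 6.92% as lower, so the members passed as lower about as often as probes at large. Leaving out single arrays gave 0 to 4 members. The difference was -2.01 for NOG1, -1.26 for RRS1 and -1.04 for NOP15.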

How the results depend on the processing

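Counts are of members called in either direction. The share of all probes that passed under each alternative is not given here. Whether the members gained or lost more calls than probes at large therefore cannot be read from these counts. Quantile normalization, which gives all arrays 1 spread though within each strain the 0 min array had the narrowest, changed most: 24 for the shift in place of 38, 6 for prp17 null against SS330 in place of 25, 1 for prp17-1 and 1 for prp22-1 against SS330 in place of 0, and 0 for prp17 null against prp17-1 in place of 2. It gave 1, 2 and 1 for the change from 23C to 37C in prp17 null, prp17-1 and prp22-1 in place of 0, and 1 for the early to late change in prp17 null in place of 3, with a median of 0.18 in place of -0.28. NOG2 became 0.54 in the shift in place of -0.08.

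With probes complete on all arrays, 28 members remained to test, and the counts were 24 for the shift, 15 for prp17 null against SS330 and 1 for prp17 null against prp17-1. With no replicate block, prp17 null gave 7 against SS330, 1 against prp17-1 and 1 for the early to late change. With only the arrays of the strains compared, the counts were 9 and 3 for prp17 null and prp17-1 against SS330, 0 for prp17 null against prp17-1, and 1 for the early to late change in prp17 null. No centring gave 1 for prp17 null against prp17-1. Without the 4 arrays with values for under 85% of probes, an alternative chosen after seeing the data, the counts were 11, 2 and 1 for prp17 null, prp17-1 and prp22-1 against SS330 and 1 for prp17 null against prp17-1.

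Leaving out single arrays gave 37 to 40 for the shift, 16 to 27, 0 to 2 and 0 to 1 for prp17 null, prp17-1 and prp22-1 against SS330, 0 to 7 for prp17 null against prp17-1, 0 for each change from 23C to 37C, and 0 to 4, 0 and 0 to 1 for the early to late change in prp17 null, prp17-1 and prp22-1. Without all arrays of 1 strain, the count for the shift was 31 to 37. With no replicate block the shift gave 35, and no other strain comparison changed its count. Except as noted, the cause was not tested. Signal over background is not held in the values, so its limit could not be given.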
